A study of Mus musculus with 2 samples.

Results

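The 10 genes described here are receptors that tune T cell activation and 2 of their ligands, followed through cells of mouse abdominal aortas by single-cell RNA sequencing. They were taken by name from the 27998 genes listed: the costimulatory receptors Cd28, Icos and Tnfrsf4 (OX40), the inhibitory receptors Ctla4, Pdcd1 (PD-1), Lag3, Havcr2 (TIM-3) and Tigit, and the PD-1 ligands Cd274 (PD-L1) and Pdcd1lg2 (PD-L2). Wild-type C57BL/6J mice received LCWE, a cell wall extract of Lactobacillus casei that causes a vasculitis used as a model of Kawasaki disease, or phosphate-buffered saline (PBS), and the abdominal aorta was taken 2 weeks after the intraperitoneal injection. The LCWE library came from a pool of 7 aortas and the PBS library from a pool of 9, so the animals of a group cannot be told apart. With 1 library in each group there is no replicate and no test, and the brackets hold exact 95% intervals that cover counting error only.

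CD28 and ICOS bind B7 family ligands on antigen-presenting cells and add a second signal to that of the T cell receptor, and OX40 prolongs the response of cells already activated. CTLA-4 competes with CD28 for CD80 and CD86 and is carried by regulatory T cells at all times, while PD-1, LAG-3, TIM-3 and TIGIT restrain activated T cells. PD-L1 can be made by many cell types, often after interferon, whereas PD-L2 is best known from dendritic cells and macrophages.

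The LCWE library held 5091 cells and 42275754 unique molecular identifiers (UMIs, each standing for 1 captured transcript), and the PBS library 5386 cells and 62600808 UMIs. Median depths per cell were 5508 UMIs (LCWE) and 11252.5 UMIs (PBS), and 8 cell barcodes occur in both. Classes of cells are those the authors named, 25 in all and 9 when grouped broadly. A level is given as CPM, the UMIs of a gene per 1000000 UMIs of all cells of a class, and levels are compared between classes but not between genes. T and natural killer (NK) cells numbered 2198 after LCWE and 75 after PBS, so the map across classes rests on the LCWE library. Some of the class names were set beside their markers, and the others, among them NKT and eosinophil, are given as the authors named them. A UMI of Foxp3, the regulator that defines regulatory T cells, was found in 88 of 294 cells of the class named Treg and activated CD4. Cd8b1 was found in 85.5% to 90.4% of the cells of the 3 CD8 classes, and Ncr1 in 56.9% of the NK class. The class named gamma delta T held 54 cells, of which 88.9% had a UMI of Cd3e and 0 UMIs fell on Cd4. The gamma delta receptor genes Trdc, Tcrg-C1 and Tcrg-V6 are not among the genes listed, so that name could not be checked by its defining markers.

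The members lie in few places of the genome (GRCm38, GENCODE vM21). Cd28 (chr1:60716800-60773359), Ctla4 (chr1:60887000-60915832) and Icos (chr1:60977927-61000320) follow each other on the plus strand, with 113641 bases between the first pair and 62095 between the second. Pdcd1 is on the minus strand of the same chromosome (chr1:94038305-94052553). Cd274 (chr19:29367455-29388095) and Pdcd1lg2 (chr19:29410919-29471161) are 22824 bases apart on the plus strand. Lag3 (chr6:124904361-124911705) and Tigit (chr16:43648867-43664146) lie on the minus strand, and Havcr2 (chr11:46454935-46481255) and Tnfrsf4 (chr4:156013843-156016612) on the plus strand. All 10 are protein-coding.

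RefSeq promoters (GRCm38.p6) were matched for 7 of the 10 members, and the 250 bases before the start are shown for 1 gene each of the regulatory T, dendritic and macrophage patterns described below, since these are the stretches from which the compared transcripts start. They are Ctla4 (chr1:60908775-60909024, plus strand, inside the longer GENCODE model of the gene), Pdcd1lg2 (chr19:29410669-29410918, plus strand) and Havcr2 (chr11:46454681-46454930, plus strand), with 0 bases in an annotated UTR. Capitals mark a match to a searched motif.
Ctla4: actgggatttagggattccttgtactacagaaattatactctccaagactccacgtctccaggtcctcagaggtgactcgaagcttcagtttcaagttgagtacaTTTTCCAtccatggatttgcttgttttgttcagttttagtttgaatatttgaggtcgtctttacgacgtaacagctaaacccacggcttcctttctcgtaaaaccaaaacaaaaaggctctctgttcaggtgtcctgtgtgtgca
Pdcd1lg2: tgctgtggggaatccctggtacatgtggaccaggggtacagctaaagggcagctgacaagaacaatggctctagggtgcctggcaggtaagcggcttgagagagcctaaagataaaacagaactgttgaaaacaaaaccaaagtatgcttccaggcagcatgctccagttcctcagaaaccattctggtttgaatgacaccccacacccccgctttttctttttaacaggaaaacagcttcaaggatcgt
Havcr2: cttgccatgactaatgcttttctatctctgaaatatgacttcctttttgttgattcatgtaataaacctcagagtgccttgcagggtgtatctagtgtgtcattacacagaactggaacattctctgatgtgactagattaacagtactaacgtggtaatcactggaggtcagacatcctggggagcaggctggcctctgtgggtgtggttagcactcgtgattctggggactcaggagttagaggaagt
The motifs searched, on both strands, were TATAAA (the TATA box), an interferon-response core (GAAA and GAAA with any 2 bases between them), TTCNNNGAA (a STAT site), TGGAAAA (the NFAT core) and an NF-kB-like motif (GGG, any 2 bases, TT, any base and CC). In these windows a single match was found, the NFAT core of Ctla4 read on the minus strand at positions -145 to -139 from the start. Of all 32851 promoter windows of the same length, 5.93% hold the NFAT core, 12.4% the TATA box, 2.98% the interferon-response core, 7.02% the STAT site and 4.11% the NF-kB-like motif. The other 6 matched promoters hold none of these letters, and a match is a description of the sequence only.

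**Figure D1:**
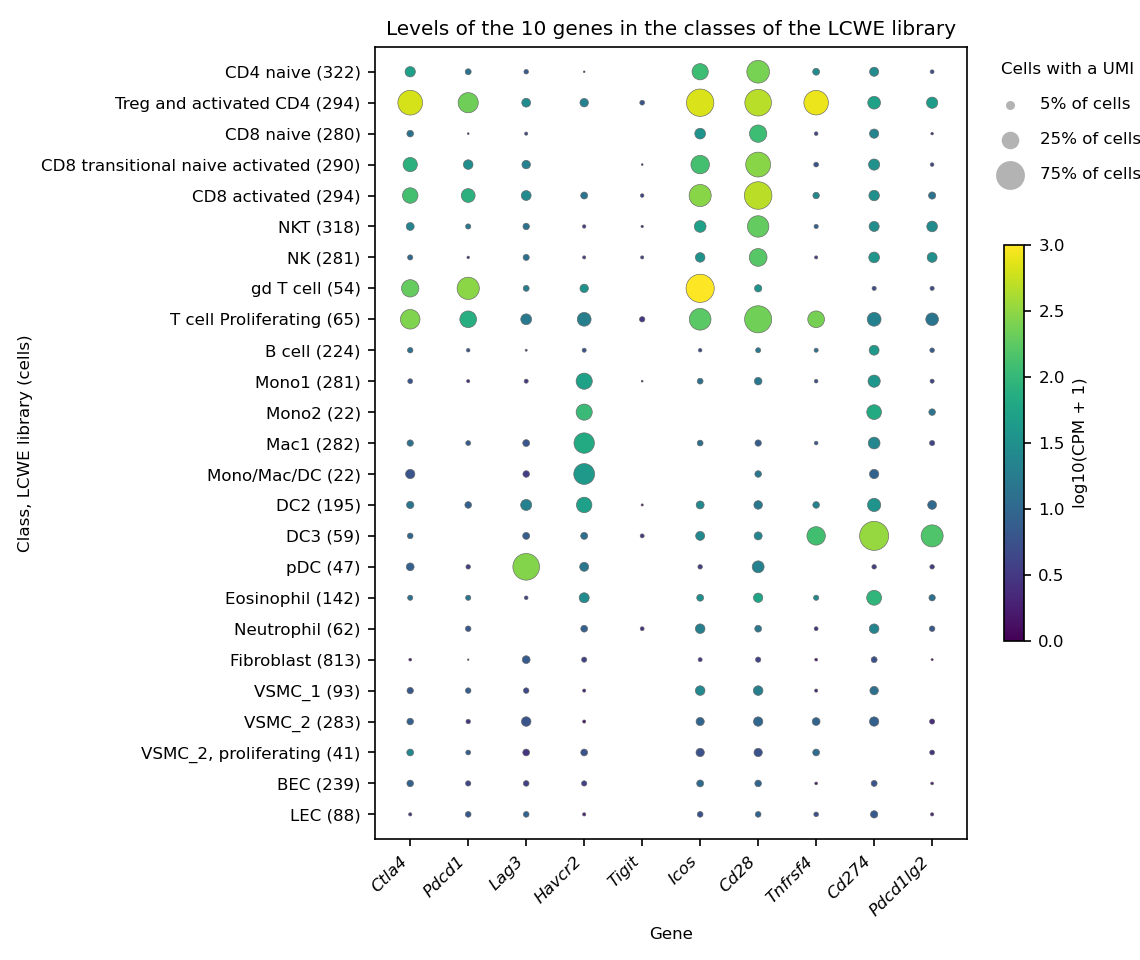
Level and detection of the 10 genes (columns) in the 25 classes of the LCWE library (rows, cells in brackets). Colour gives log10(CPM + 1) and dot area the percent of cells with a UMI. The class Treg and activated CD4 has Ctla4 at 640.4 CPM and Tnfrsf4 at 823 CPM, and the ligands Cd274 and Pdcd1lg2 are highest in DC3 at 334 and 147 CPM.

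Among the costimulatory receptors, Cd28 was spread over most T cell classes, Icos was highest in the gamma delta class, and Tnfrsf4 was mostly found in 1 class. Cd28, which gives the classical second signal, reached 489 CPM (453 to 527; 685 UMIs) in activated CD8 cells and 479 (442 to 518; 627 UMIs) in the Treg and activated CD4 class, and these neighbours in the order do not differ beyond their intervals. It was found in 79.6% and 74.1% of their cells. Transitional CD8 cells had 292 CPM (264 to 321), naive CD4 cells 240 (214 to 269), NKT cells 191 (169 to 215), NK cells 159 (136 to 185) and naive CD8 cells 113 (95.5 to 133). Gamma delta T cells stood apart at 33.2 CPM (14.3 to 65.5), with 8 UMIs in 3 of 54 cells, although they had 12.8 CD3 UMIs (Cd3d, Cd3e and Cd3g) per cell, against 11.6 in the Treg and activated CD4 class. That Cd28 level is 0.0693 times (0.0298 to 0.137) that of the Treg and activated CD4 class and 0.209 times (0.0889 to 0.422) that of NK cells. Cd28 was thus detected in the NK class, which had 0.537 CD3 UMIs per cell, at 1.11 Cd28 UMIs per CD3 UMI, against 0.146 over all T and NK classes.

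Icos, an inducible receptor of the CD28 family, did not follow Cd28 in gamma delta T cells. It reached 1001 CPM (879 to 1136) in gamma delta T cells, with a UMI in 83.3% of the cells, and 668 CPM (624 to 714) in 78.6% of the Treg and activated CD4 cells, a ratio of 1.5 (1.29 to 1.73). Activated CD8 cells followed at 290.0 CPM (263 to 320) and dividing T cells at 170.1 (145 to 198). Naive CD4 cells had 114 CPM (96.3 to 135), NKT cells 48.7 (38 to 61.5), naive CD8 cells 34.1 (24.8 to 45.8) and NK cells 32.3 (22.4 to 45.2), and the intervals of the last 3 overlap.

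Tnfrsf4 encodes OX40, a TNF receptor family member. Its level in the Treg and activated CD4 class was 823 CPM (775 to 874), with 1077 of the 1614 Tnfrsf4 UMIs of the library, 66.7% (64.4 to 69). Dividing T cells had 237 CPM (207 to 269) and naive CD4 cells 25.8 (17.6 to 36.4). Activated CD8 cells had 23.6 CPM (16.2 to 33.1), a level 34.9-fold (24.7 to 51) lower than in the Treg and activated CD4 class. Gamma delta T cells, rich in Icos, had 0 Tnfrsf4 UMIs in 54 cells, which allows at most 15.3 CPM.

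The inhibitory receptors showed distinct patterns. Ctla4 was highest in the Treg and activated CD4 class, at 640.4 CPM (598 to 685) with a UMI in 63.9% of cells. That class held 47.8% (45.4 to 50.1) of the Ctla4 UMIs of the library. Dividing T cells had 260.2 CPM (229 to 294) and gamma delta T cells 195 (143 to 260), with overlapping intervals, and activated CD8 cells 126 (109 to 147). Naive CD4 cells had 48.3 CPM (36.9 to 62.2), so the Treg and activated CD4 level was 13.3-fold (10.2 to 17.5) higher.

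Pdcd1 encodes PD-1, whose ligands are the 2 described further on. It had 299 CPM (234 to 377) in gamma delta T cells and 215 (191 to 242) in the Treg and activated CD4 class, with a UMI in 51.9% and 42.5% of cells. These intervals overlap, and the ratio was 1.39 (1.06 to 1.80). Activated CD8 cells at 82.2 CPM (67.8 to 98.6) and dividing T cells at 75.8 (59.5 to 95.2) came next and do not differ beyond their intervals. NK cells had 2 Pdcd1 UMIs and naive CD8 cells 1.

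In T cells, Lag3, whose product binds MHC class II, was low: 26 CPM (18 to 36.3) in the Treg and activated CD4 class, 25.7 (18 to 35.6) in activated CD8 cells and 18.8 (12.4 to 27.3) in transitional CD8 cells, with overlapping intervals. Its highest class was not a T cell class. Plasmacytoid dendritic cells (pDC), which make type I interferon, had 278 CPM (229 to 333), with 115 UMIs in 35 of 47 cells, 74.5%. This was 10.7-fold (7.23 to 16.2) higher than in the Treg and activated CD4 class, and 25.7% (21.7 to 30) of the Lag3 UMIs of the library lay in these 47 cells. A UMI of Siglech, a defining pDC marker, was found in 46 of the 47.

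Havcr2 was a gene of macrophages and monocytes in this library more than of T cells. Macrophages (Mac1) had 64.9 CPM (56 to 74.7) with a UMI in 43.6% of cells, monocytes (Mono1) 49.4 (40.5 to 59.8) and DC2 49 (39.5 to 60). The intervals of these neighbours overlap, and the ratio of macrophages to monocytes was 1.31 (1.03 to 1.68). Of the 195 DC2 cells, 22 had a UMI of Xcr1 or Clec9a, genes of type 1 dendritic cells. They held 35 of the 93 Havcr2 UMIs, 125 CPM (87 to 174), while 104 cells with Cd209a had 29.4 (19.8 to 42). Those 35 UMIs lay in 7 of the 22 cells, 31.8% (13.9 to 54.9), a share that overlaps the 23.1% (15.4 to 32.4) of cells with Cd209a. The Mono2 class had 105.5 CPM (45.6 to 208) from 8 UMIs in 22 cells. T and NK classes together held 13.8% (11.1 to 16.9) of the Havcr2 UMIs, with 33.2 CPM (14.3 to 65.5; 8 UMIs) in gamma delta T cells, an interval that overlaps those of macrophages, monocytes and DC2, 20.6 (13.6 to 30) in the Treg and activated CD4 class and 13.6 in activated CD8 cells. Tigit was at the edge of detection, with 23 UMIs among LCWE cells and 0 among PBS cells. Of the 23, 19 were in T and NK cells, 7 of them in the Treg and activated CD4 class, too few to order the classes.

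**Figure D2:**
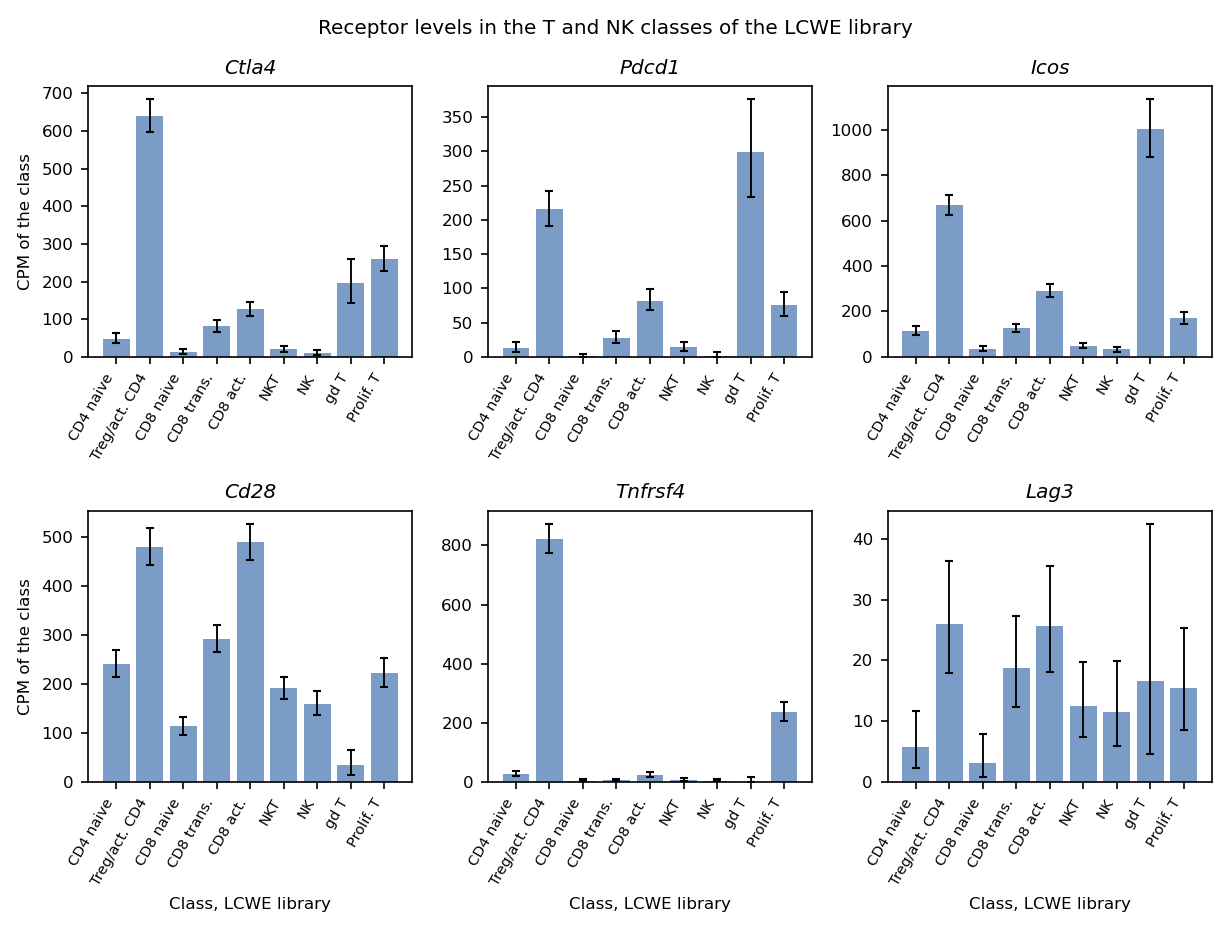
CPM of 6 receptors in the 9 T and NK classes of the LCWE library, each panel with its own axis from 0. Bars are CPM over the summed UMIs of a class and error bars exact 95% Poisson intervals. Icos and Pdcd1 are high in gamma delta T cells (gd T), where Cd28 is at 33.2 CPM and Tnfrsf4 at 0.

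Shares of cells with a UMI depend on depth, and free RNA adds to them. Median UMIs were 3622 in the Treg and activated CD4 class, 3839 in activated CD8 cells, 3767 in gamma delta T cells and 11494 in LCWE fibroblasts, which should lack these receptors and had a UMI in 0.861% of cells for Ctla4, 0.246% for Pdcd1, 1.72% for Icos, 2.95% for Cd28 and 0.861% for Tnfrsf4. With each cell thinned to 1600 UMIs, which leaves out 0 cells, the Treg and activated CD4 shares were 47.2% for Ctla4, 24.7% for Pdcd1, 57.7% for Icos, 49.4% for Cd28 and 46.4% for Tnfrsf4. In thinned fibroblasts the same genes were in 0.23% to 0.476% of cells apart from Pdcd1 and Tnfrsf4, at 0.0332% and 0.118%. The T cell shares thus lie above the fibroblast shares at equal depth.

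Along the CD8 classes, from naive to transitional to activated, the receptors other than Havcr2 and Tigit had higher levels at each step, the smallest steps being within counting error. Ctla4 had 12.4, 80.7 and 126 CPM in naive, transitional and activated cells, and the activated level was 10.2-fold (6.11 to 18.2) that of naive cells. Icos had 34.1, 126 and 290.0 CPM, 8.51-fold (6.22 to 11.9) from end to end. Cd28, already present in naive cells, had 113, 292 and 489 CPM, 4.33-fold (3.61 to 5.21). Pdcd1 had 1, 40 and 115 UMIs, so the activated class lay 106-fold (18.7 to 4224) above a naive level that rests on 1 UMI. Lag3 had 4, 27 and 36 UMIs, with a ratio of activated to transitional cells of 1.37 (0.808 to 2.34). Tnfrsf4 had 4, 7 and 33 UMIs. The classes were made from the same transcripts, so these steps describe them and test nothing.

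The Treg and activated CD4 class is a mixture, and its cells were divided by a UMI of Foxp3. The 88 cells with one had 956 CPM of Ctla4 (870 to 1048), against 460.1 (415 to 509) in the 206 cells without. Tnfrsf4 differed more, at 1434 CPM (1329 to 1546) with Foxp3 and 473 (428 to 522) without. Cd28 ran the other way, at 317 CPM (269 to 372) with Foxp3 and 572 (522 to 626) without. Icos at 601 (533 to 674) with Foxp3 and 706 (650.4 to 766) without, and Pdcd1 at 246 (203 to 294) and 198 (169 to 231), had overlapping intervals, while Havcr2 had 39.9 CPM (24 to 62.3; 19 UMIs) and 9.61 (4.15 to 18.9; 8 UMIs). Cells with Foxp3 had a median of 4339 UMIs and those without 3402.5, and the part of this difference in depth in the contrast was not tested. Among the dividing T cells, 11 with Foxp3 had 951 CPM of Ctla4 (823 to 1093) and 970 of Tnfrsf4 (840 to 1114), against 89.8 (65.3 to 121) and 26.5 (14.1 to 45.4) in 34 with a CD8 UMI and no Foxp3. Icos there had 434 CPM (349 to 534) in the 11 cells with Foxp3 and 73.5 (51.5 to 102) in the 34 CD8 cells. Their shares of those genes came from few cells and are given as levels only.

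UMIs of several receptors often fell in the same cell. Such counts rise with the share of each receptor alone, and whether receptors occur together beyond those shares was not tested. In the Treg and activated CD4 class 137 of 294 cells, 46.6% (40.8 to 52.5), had UMIs of 4 or more of the 8 receptors, and 5 cells had none. In activated CD8 cells 12.9% (9.31 to 17.3) had 4 or more, in transitional CD8 cells 5.17% (2.92 to 8.39), and in naive CD8 cells 1 of 280. Gamma delta T cells reached 4 or more in 2 of 54 cells, and 22 of the 54 had exactly 2. Median depths of these T cell classes ran from 3622 to 4640.0 UMIs, and the dividing class, with a median of 12440.0 UMIs, cannot be set beside them in these unthinned counts.

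The 2 ligands of PD-1 peaked in the same class. DC3 cells, which had a UMI of Ccr7 in 58 of 59 and of Fscn1 in 50 of 59, genes of migratory dendritic cells, had 334 CPM of Cd274 (283 to 392; 150 UMIs) with a UMI in 88.1% of cells. DC2 cells had 34.2 CPM (26.4 to 43.6), 9.76-fold (7.25 to 13.3) less. Eosinophils followed DC3 at 90.9 CPM (69.7 to 117) with 23.2% of cells, then Mono2 at 66 (21.4 to 154; 5 UMIs), monocytes (Mono1) at 36.4 (28.8 to 45.4) and macrophages (Mac1) at 23.7 (18.4 to 29.9). T cells carried Cd274 as well, at 50.4 CPM (39 to 64.2) in the Treg and activated CD4 class, and B cells had 39.9 (26.9 to 56.9). pDC of similar depth (median 7170.0 UMIs, against 7304 in DC3) had Cd274 in 1 of 47 cells, 2.13%. In the stroma of the LCWE library Cd274 was lower, at 4.61 CPM (3.37 to 6.15) in fibroblasts, 7.09 (5.08 to 9.61) in the VSMC_2 class and 5.05 in blood endothelial cells.

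Pdcd1lg2 had 147 CPM (114 to 187; 66 UMIs) in DC3, with a UMI in 50.8% of cells, and 15.5-fold (9.10 to 27.8) less in DC2. Next came lymphocytes and not myeloid cells: the Treg and activated CD4 class at 42.8 CPM (32.3 to 55.6), NK cells at 30.4 (20.8 to 42.9) and NKT cells at 27.1 (19.3 to 37.1). Macrophages and monocytes had 10 and 7 UMIs in 282 and 281 cells. Of the 59 DC3 cells, 29 had UMIs of both ligands, 23 of Cd274 alone, 1 of Pdcd1lg2 alone and 6 of neither. DC3 also carried Tnfrsf4, at 123 CPM (92.3 to 159) in 35.6% of cells, 6.29-fold (4.07 to 9.81) above DC2, where 4.62% of cells had a UMI at a median of 8992 UMIs. The annotation has an antisense transcript over each ligand gene, AC119228.1 over Cd274 and A930007I19Rik over Pdcd1lg2. Whether reads were counted by strand is not given in the sources used here.

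**Figure D3:**
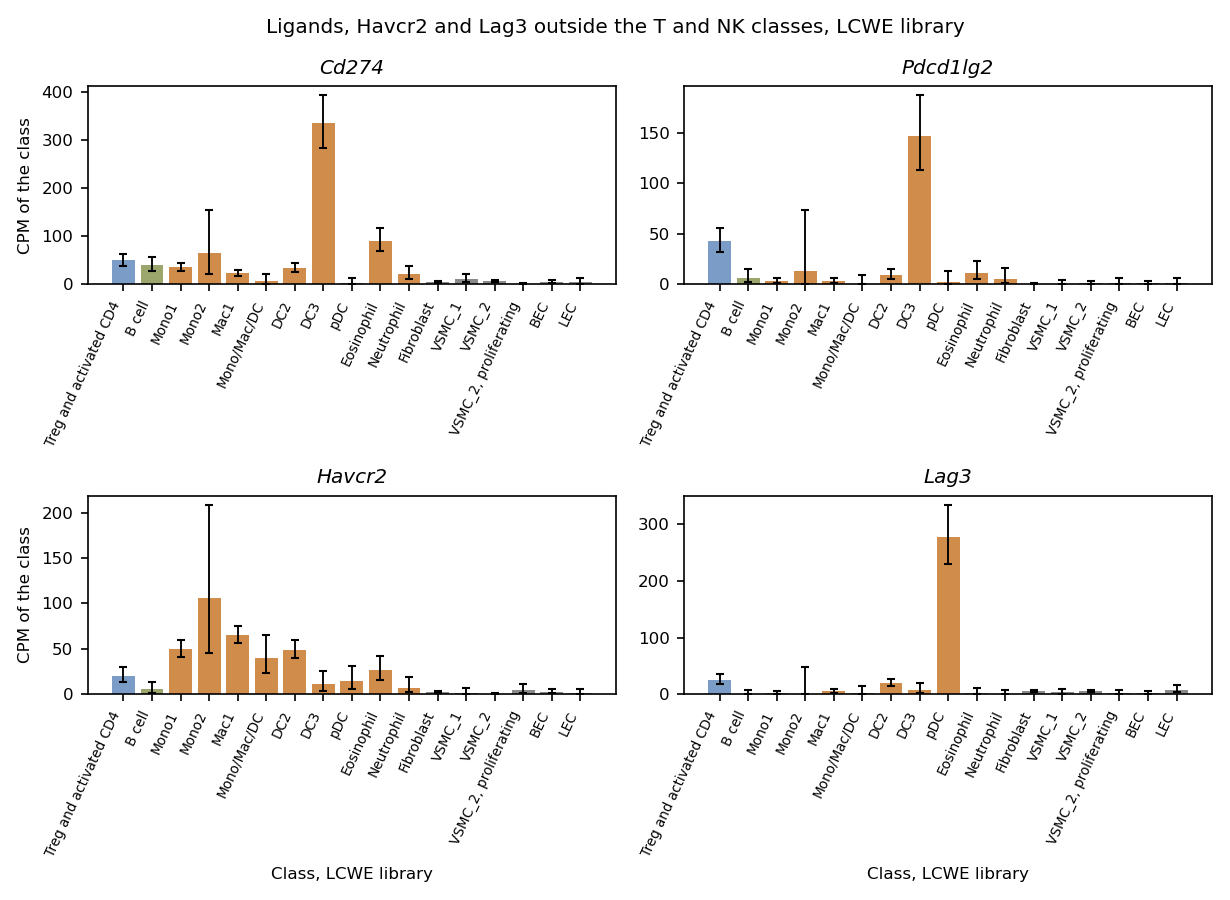
CPM of both ligands, Havcr2 and Lag3 in the B cell, myeloid (orange) and stromal (grey) classes of the LCWE library, beside the Treg and activated CD4 class (blue). Error bars are exact 95% Poisson intervals and each panel has its own axis from 0. DC3 stands out for Cd274 and Pdcd1lg2, pDC for Lag3, and Havcr2 spans monocytes, macrophages and DC2.

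Free T cell RNA was gauged by CD3 UMIs, since 1 source keeps its transcripts in 1 ratio. LCWE fibroblasts had 0.197 CD3 UMIs per cell, VSMC_1 cells 1.03, blood endothelial cells 0.908 and macrophages 0.936, against 8.82 in T and NK cells. The ratio of a receptor to CD3 was taken in the 14 LCWE classes outside the T and NK cells that had at least 20 CD3 UMIs. For Cd28 the median of these ratios was 0.165 and the range 0.0758 (macrophages) to 0.385 (DC3), against 0.146 over the T and NK classes. For Icos the median was 0.157 and the range 0.0263 (pDC) to 0.423 (DC3), against 0.111. Ctla4 had a median of 0.093, against 0.0798, with 0 in neutrophils and 1 in dividing VSMC_2 cells, where its 25 UMIs lay in 2 of 41 cells. In PBS fibroblasts, with 10 CD3 UMIs in all, Cd28 had 21 UMIs and Icos 10, and in PBS blood endothelial cells Icos had 5 UMIs beside 8 of CD3. The part of free T cell RNA in these counts was not tested. Some peaks lie far above the T cell ratio: Tnfrsf4 had 2.12 UMIs per CD3 UMI in DC3 against 0.0721 in T and NK cells, Havcr2 0.727 in macrophages against 0.00413, Lag3 3.03 in pDC against 0.0081, and Cd274 5.77 in DC3 against 0.016.

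**Figure D4:**
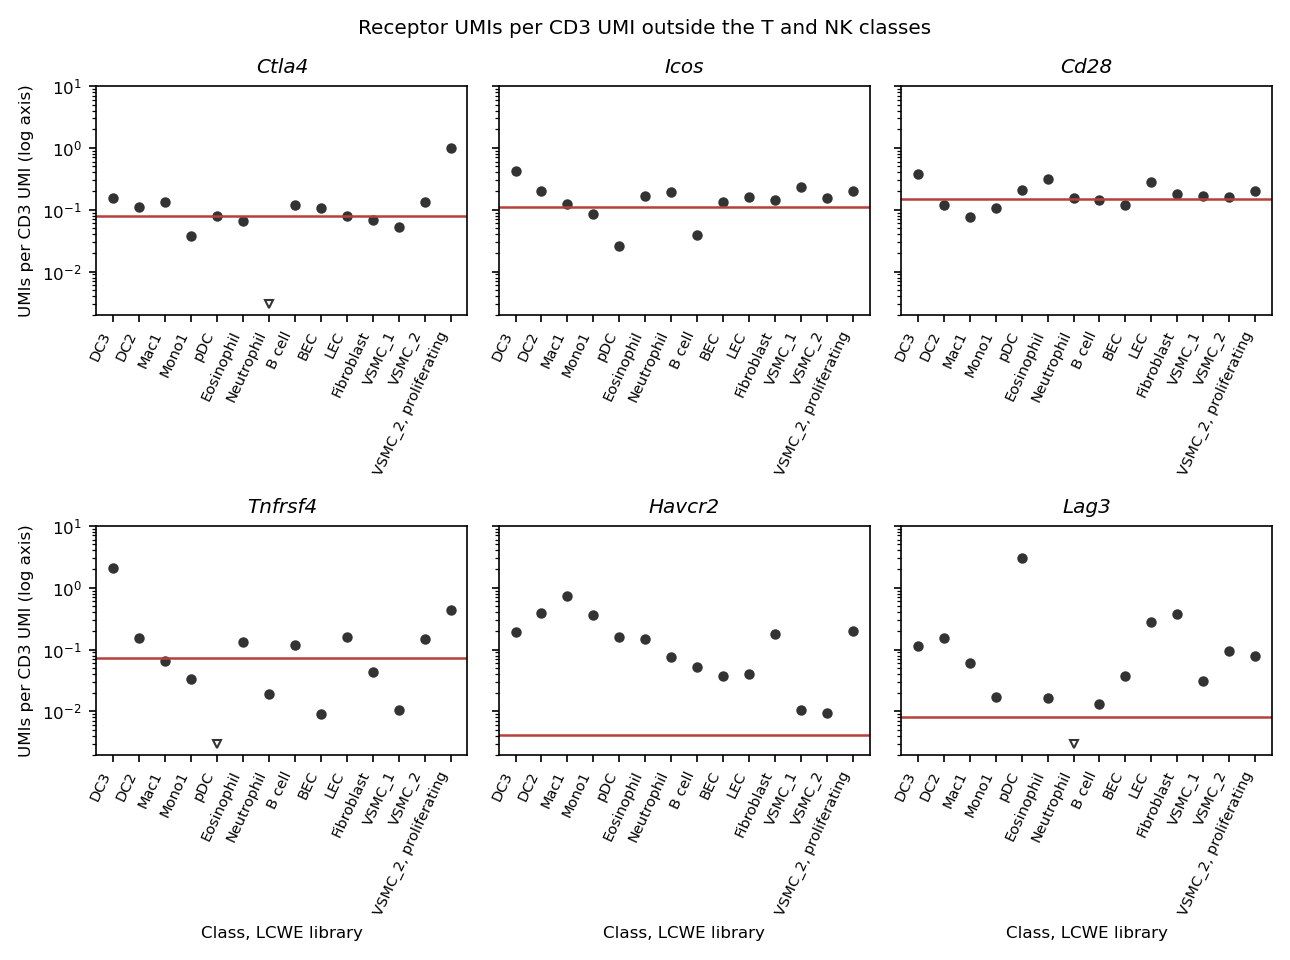
UMIs of 6 receptors per CD3 UMI (log axis) in the 14 classes of the LCWE library outside the T and NK classes with at least 20 CD3 UMIs, with the ratio over all T and NK cells as a red line. An open triangle marks 0 UMIs. Medians of Ctla4, Icos and Cd28 are 0.093, 0.157 and 0.165, close to the line, with single classes off it (Ctla4 at 1 in dividing VSMC_2 cells, Icos at 0.423 in DC3 and 0.0263 in pDC), whereas Tnfrsf4 in DC3 (2.12), Havcr2 in macrophages (0.727) and Lag3 in pDC (3.03) lie above it.

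How did the aortas given LCWE differ from those given PBS? Over the T, NK and innate lymphoid class, 4 of the 9 members with a joint sum of at least 20 UMIs were at least 2-fold higher in LCWE with the interval beyond 1, and 0 were lower. By the same rule 1.89% of the 10602 genes counted were higher and 3.87% lower, and the median log2 ratio was 1.03 for the members and -0.19 for all genes. The class held 10384536 UMIs in LCWE and 406551 in PBS, so genes of few UMIs could not be called higher. The share of all genes includes such genes. Tnfrsf4 had 134.5 CPM in LCWE T and NK cells and 17.2 in PBS cells (1397 and 7 UMIs), 7.81-fold (3.78 to 19.5) higher. Ctla4 had 149 CPM in LCWE cells and 29.5 in PBS cells (1548 and 12 UMIs), 5.05-fold (2.88 to 9.80) higher. Both were among the receptors of the Foxp3 cells above. Pdcd1 had 60 CPM in LCWE cells and 14.8 in PBS cells (623 and 6 UMIs), 4.07-fold (1.86 to 11.1) higher. Pdcd1lg2 had 170 UMIs in LCWE cells and 1 in PBS cells, a ratio of 6.66 (1.18 to 264). The PBS values come from few cells: 7 of 75 had a Ctla4 UMI, 4 a Pdcd1 UMI and 3 a Tnfrsf4 UMI.

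The receptors of the CD28 family that give the second signal did not follow. Cd28 had 273 CPM in LCWE cells and 349 in PBS cells, a ratio of 0.783 (0.661 to 0.933), and Icos 208 CPM in LCWE cells and 162 in PBS cells, a ratio of 1.28 (1.00 to 1.66). Neither reached a 2-fold difference. For Lag3 at 2.05 (0.688 to 10), Havcr2 at 1.04 (0.345 to 5.17) and Cd274 at 1.21 (0.651 to 2.56) the depth does not separate the libraries, and Tigit, with 19 UMIs in LCWE and 0 in PBS, was under the minimum. The makeup of the class differed, with 318 NKT cells in LCWE and 0 in PBS, and 280 naive CD8 cells in LCWE and 1 in PBS. With LCWE cells weighted to the PBS makeup the ratios were 10.9 for Tnfrsf4, 6.71 for Ctla4, 4.95 for Pdcd1, 1.49 for Icos and 0.897 for Cd28. This weighting covers the named classes only, and the makeup within a class, such as its share of Foxp3 cells, was not weighted. The part of makeup in the ratios was not tested.

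**Figure D5:**
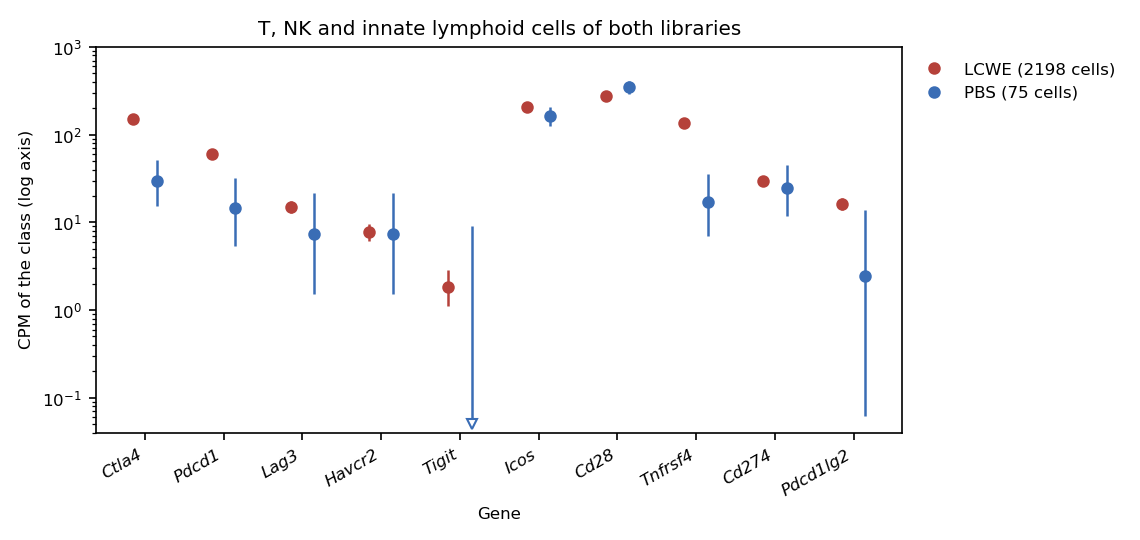
CPM (log axis) of the 10 genes in the T, NK and innate lymphoid class of the LCWE library (red, left, 2198 cells) and of the PBS library (blue, right, 75 cells), with exact 95% Poisson intervals. The open triangle marks 0 UMIs of Tigit in PBS. The intervals of Ctla4, Pdcd1, Tnfrsf4 and Pdcd1lg2, higher in LCWE, and of Cd28, lower in LCWE, do not overlap between libraries.

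Within the fine classes, the Treg and activated CD4 class held 294 LCWE cells and 11 PBS cells. There Ctla4 had 838 UMIs in LCWE and 3 in PBS, 14.5-fold (4.95 to 70.6) higher, and Pdcd1 282 and 4, 3.67-fold (1.42 to 13.6) higher. Icos had 874 UMIs in LCWE and 20 in PBS, 2.27-fold (1.46 to 3.74) higher, while Cd28 was at 1.09 (0.754 to 1.63). Tnfrsf4 had 1077 UMIs in LCWE and 5 in PBS, 11.2-fold (4.79 to 34.6) higher, with all 5 in 1 PBS cell. In activated CD8 cells, with 294 in LCWE and 15 in PBS, the ratios were 1.15 (0.573 to 2.72) for Ctla4, 0.883 (0.585 to 1.39) for Icos and 0.851 (0.623 to 1.19) for Cd28. Pdcd1 there had 115 UMIs in LCWE and 2 in PBS, a ratio of 3 (0.812 to 25.1). In transitional CD8 cells, with 290 in LCWE and 15 in PBS, Icos had 181 UMIs in LCWE and 2 in PBS, 4.32-fold (1.18 to 35.9) higher, and Ctla4 116 and 0, with a lower limit of 1.48-fold and no call against the floor of 3 UMIs. Among naive CD4 cells, 322 in LCWE and 12 in PBS, Cd28 had 240 CPM in LCWE and 459 in PBS, a ratio of 0.523 (0.339 to 0.847). Whether the receptors differ more in one T cell class than in another was not tested.

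Stromal cells were compared in the same way. In fibroblasts 5 members were counted, of which 2 were higher in LCWE and 1 lower, where 9.91% of all 12357 genes were higher and 7.08% lower. Cd274 had 4.61 CPM in LCWE fibroblasts and 1.97 in PBS fibroblasts (46 and 12 UMIs), 2.34-fold (1.22 to 4.84) higher. Per CD3 UMI, Cd274 was at 0.2875 in LCWE fibroblasts and 1.2 in PBS fibroblasts, which had 160 and 10 CD3 UMIs. Havcr2 had 28 UMIs in LCWE and 0 in PBS. Against a floor of 3 UMIs over the class it was 5.69-fold higher, with a lower limit of 4.33. It reached the minimum of UMIs through the LCWE library alone, which fixed its call. Havcr2 per CD3 UMI was 0.175 in LCWE fibroblasts, above the T cell ratio of 0.00413 and below the 0.727 of macrophages, whose free RNA was not gauged.

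Lag3 went the other way, with 6.01 CPM in LCWE fibroblasts (60 UMIs in 52 of 813 cells) and 14.6 in PBS fibroblasts (89 UMIs in 80 of 868 cells), 2.43-fold (1.73 to 3.44) lower in LCWE. PBS fibroblasts had 10 CD3 UMIs in all, so that Lag3 had 8.9 UMIs per CD3 UMI there. PBS smooth muscle cells (VSMC_1) had 173 Lag3 UMIs beside 16 CD3 UMIs, 3.24 CPM in 3.98% of cells. The next gene on the same strand upstream of Lag3 is Ptms, which encodes parathymosin, with 1976 bases between them. Ptms had 403 CPM in LCWE fibroblasts and 521 in PBS fibroblasts, 1254 in PBS VSMC_1 cells and 574 in LCWE pDC. In the PBS library VSMC_1 cells had more Ptms and less Lag3 than fibroblasts. Dividing VSMC_2 cells there had Ptms at 2208 CPM and Lag3 at 14 (3.82 to 35.9; 4 UMIs), and in fibroblasts both genes were lower in LCWE than in PBS. The part of reads from Ptms in the Lag3 counts was not tested.

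In endothelial cells 5 members were counted and 3 were higher in LCWE, where 9.14% of all 10925 genes were higher and 5.35% lower. These were Icos, with 33 UMIs in LCWE and 5 in PBS, 3.50-fold (1.36 to 11.5), Cd28, with 33 and 0, and Ctla4, with 25 and 0. The LCWE UMIs lay in 15, 14 and 12 of 327 cells, and those of Icos in PBS in 2 of 246. UMIs that share a cell are not independent, which the intervals do not cover. Against a floor of 3 UMIs Cd28 was 5.84-fold and Ctla4 4.42-fold higher, with lower limits of 4.49 and 3.34. Both reached the minimum of 20 UMIs through the LCWE library alone, and with 0 PBS UMIs that fixed their calls. The LCWE blood endothelial cells had 0.908 CD3 UMIs per cell and the PBS ones 0.0369, and the LCWE cells had 0.134 Icos, 0.120 Cd28 and 0.106 Ctla4 UMIs per CD3 UMI. As a mean over cells the log2 ratio of Icos was 0.77, under the 2-fold line, against 1.81 from the summed UMIs. The ligand Cd274 was at 1.06 (0.474 to 2.54), with 20 UMIs in LCWE and 10 in PBS. Smooth muscle cells numbered 93 in LCWE and 4141 in PBS, and 2 of the 3 members counted were higher in LCWE, where 8.42% of all 12817 genes were higher and 2.61% lower. Cd274 had 11.4 CPM in LCWE smooth muscle cells and 2.13 in PBS ones (10 and 114 UMIs), 5.37-fold (2.51 to 10.2) higher, at 0.104 UMIs per CD3 UMI in LCWE and 7.13 in PBS. The other was Icos, with 22 UMIs in 9 of 93 LCWE cells and 0 UMIs in PBS, at 0.229 per CD3 UMI. Its minimum of UMIs was reached through LCWE alone, which fixed its call. With cells of at most 10% mitochondrial UMIs 1 member was called, Cd274, since Icos was left with 19 UMIs, under the minimum of 20, and with no minimum 6 were called. Lag3 was at 1.06 (0.217 to 3.15). Of myeloid cells the PBS library held too few to compare: its 18 monocytes, macrophages and dendritic cells had 5 Havcr2 UMIs, 2 of Cd274 and 0 of Pdcd1lg2 and Lag3, against 426, 372, 103 and 177 UMIs in 908 LCWE cells.

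A list of 37 partner genes of the pathway, written by hand, held 36 genes listed in the files and 31 with at least 50 UMIs in the LCWE library. The class with the highest level was Treg and activated CD4 for 8 of them and DC3 for 5. Cd80 and Cd86, the ligands shared by CD28 and CTLA-4, peaked in DC3 at 84.6 CPM (59.9 to 116) and 352 (299 to 411), with Cd86 at 277 (254 to 302) in DC2. Pvr, a ligand of TIGIT, was highest in DC3 too, at 151 CPM (118 to 192), as was Cd40 at 238 (195 to 288). Nectin2, another TIGIT ligand, listed as Pvrl2, was highest in lymphatic endothelial cells at 392 CPM (352 to 435). Icosl, the ligand of ICOS, was at 37.2 CPM (24.7 to 53.8) in B cells and 35.6 (20.4 to 57.9) in DC3, and Tnfsf4, the ligand of OX40, had 45 UMIs in all, 11 of them in DC3. Lgals9, a reported ligand of TIM-3, was at 129 CPM (122 to 136) in fibroblasts and 128 (105 to 153) in lymphatic endothelial cells.

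The receptors 4-1BB (Tnfrsf9) and GITR (Tnfrsf18), which like OX40 belong to the TNF receptor family, were highest in the Treg and activated CD4 class, at 624 CPM (581 to 668) and 637 (595 to 682). Cd27 was highest in NK cells at 187 CPM (162 to 215), and Cd160, an inhibitory receptor, in NKT cells at 121 (104 to 140). Between the libraries, 4 of 26 partners counted in the T, NK and innate lymphoid class were higher in LCWE and 0 lower: Tnfrsf9, Nt5e (CD73), Foxp3 and Ikzf2 (Helios). Of all genes in that class 1.89% were higher and 3.87% lower. The median log2 ratio of the 26 was 0.21, and -0.19 for all genes. In fibroblasts 8 of 20 partners were higher and 2 lower, where 9.91% and 7.08% of all genes were. In endothelial cells 6 of 19 were higher and 2 lower, where 9.14% and 5.35% of all genes were, and in smooth muscle cells 3 of 12 higher and 1 lower, where 8.42% and 2.61% were.

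The genes whose level across 21 LCWE classes was most like that of a member, by Pearson's r of log2(CPM + 5), were taken from 10543 genes. Lck, the kinase of the CD28 and CD4 signalling complexes, was most like Cd28 (r = 0.97). Cxcr6, a chemokine receptor of tissue T cells, was most like Pdcd1 (0.93) and also most like Icos (0.92). Foxp3 was most like Tnfrsf4 (0.86) and Dusp4 most like Ctla4 (0.90). Vamp4 was most like Havcr2 (0.91), and Sla2 most like Lag3 (0.80). Jak2, a kinase of interferon signalling, was most like Cd274 (0.86) and Rnf115 most like Pdcd1lg2 (0.85). The classes share 1 library, and with classes of at least 100 cells alone 4 of the 30 genes named by the rule were kept, so these names depend on small classes.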

How the data were processed

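Single-cell RNA was measured in 1 LCWE and 1 PBS library. The authors' deposited values are raw counts, UMIs per gene and cell, made with Cell Ranger 3.0.2 against mm10 per the submitters' processing notes. The deposited cell table gives the authors' class names, a percent of mitochondrial UMIs and a doublet score. Of 50910 LCWE and 53860 PBS member values compared with the tables of the single libraries, 0 differed, and the totals of all 10477 cells equal the deposited ones.

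UMIs were summed per class and library (Python 3.11.15, numpy 2.4.6, scipy 1.17.1, pandas 2.3.3) and divided by the class total to give CPM, with exact Poisson intervals. Shares have Clopper-Pearson intervals and ratios exact conditional binomial ones, at 95%. LCWE was compared with PBS in broad classes of at least 50 cells each, for genes with at least 20 UMIs in both together. A call needed a 2-fold difference with the interval beyond 1, and a class at 0 was set to a floor of 3 UMIs. Fine classes of the T and NK cells with at least 10 cells in each library were given beside them. The call rule was tested on simulated counts. Alternatives used edgeR 4.0.16 (R 4.3.3) for scaling factors only.

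The named genes are the 10 members, the partners whose ligand or family role is given, and the gene most like each member over classes of at least 50 cells and genes with at least 200 UMIs. Doublets were left as the authors left them, with one alternative that drops the 5% of cells with the highest doublet score. The members, the lists, the Foxp3 split and the class ratios were chosen with earlier results of these data known. Annotation is GENCODE vM21 on GRCm38, the assembly that mm10 names.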

Additional observations from a re-analysis of the deposited data

How the results depend on the processing

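Of 99 log2 ratios of LCWE over PBS recomputed under the alternatives, 98 stayed within the counting interval of the reported ratio. The other was Cd274 in smooth muscle cells, 3.95 as a mean over cells of the CPM of each cell, still higher in LCWE. Called members with 0 PBS UMIs have no log2 ratio and are not among the 99. They are Ctla4 and Cd28 in endothelial cells, Havcr2 in fibroblasts and Icos in smooth muscle cells. The alternative that drops cells by doublet score was not applied to ratios of LCWE over PBS. The sign changed in 3 of the 99, none of them a called ratio: Lag3 in smooth muscle cells, -0.02 and -0.01 with the TMM and median-of-ratios factors against 0.09, and Cd274 in endothelial cells, -0.30 as a mean over cells against 0.09. The 2-fold line was crossed in 3, each as a mean over cells: Icos in endothelial cells, 0.77 against 1.81 and the one called ratio among them, and Lag3, 0.94 against 1.03 in T and NK cells and 1.06 against 0.09 in smooth muscle cells. Of 44 counts of members called, 42 stayed within 1.5 times, and both others concern smooth muscle: members called higher in LCWE were 2, and became 6 with no minimum of UMIs and 1 with cells of at most 10% mitochondrial UMIs, where Icos had 19 UMIs, under the minimum. Of 40 levels in the highest class, 36 stayed within their interval, and as a mean over cells Ctla4 was at 701 CPM, Lag3 at 341, Cd28 at 541 and Tnfrsf4 at 750.4. As a mean over cells, 9 of the 10 members kept the same class of highest level. Thinned to 4000 UMIs, 113 of 294 cells of the Treg and activated CD4 class remain, and their shares were 62.3% for Ctla4, 43.4% for Pdcd1, 79.1% for Icos and 72.0% for Tnfrsf4. With a pseudocount of 1 CPM, 18 of the 30 genes most like a member were shared. The 75 PBS T and NK cells limit what can be compared: 7 Tnfrsf4 and 12 Ctla4 UMIs stand behind the ratios above. No paired analysis was possible because each group is 1 pooled library and no test was made.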
